A study of Mus musculus with 8 samples.

Results

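The *Tdpoz* and *Spop* genes code for proteins with a MATH domain and a BTB/POZ domain. SPOP and its relative SPOPL bind substrates through the MATH domain and bring them, through the BTB domain, to ubiquitin ligases built on cullin 3 (CUL3). The *Tdpoz* genes (TD and POZ domain containing) are related copies known from oocytes and early embryos, and what their proteins do is less well established. The family described here has 9 members: *Tdpoz1*, *Tdpoz2*, *Tdpoz3*, *Tdpoz4*, *Tdpoz5*, *Tdpoz7* and *Spopfm2*, which form a cluster on mouse chromosome 3, and the broadly expressed *Spop* (chromosome 11) and *Spopl* (chromosome 2). The members were picked by name, but they were chosen with their differences between the knockdown and control arrays already known. These differences are therefore given as a description, with no test. Of the 9 members, 8 were among the 19751 genes with a named probe, and *Tdpoz5* had none.

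The arrays measured RNA of VV3 ESCs, a male mouse embryonic stem cell (ESC) line that carries a *Vasa*::Venus reporter (*Vasa* is *Ddx4*) and grows on STO feeder fibroblasts. Cells were transfected with siRNA against *L3mbtl2* (*L3mbtl2*-KD ESCs, 4 arrays) or with the non-silencing AllStars siRNA (control ESCs, 4 arrays), and each sample had its own one-colour Agilent array. L3MBTL2 is a subunit of PCGF6-PRC1, a Polycomb complex that contains MAX, and the knockdown was made to ask whether loss of this subunit resembles loss of MAX in its effect on genes of germ cells. The study's methods describe sorting of *L3mbtl2*-KD ESCs for *Vasa* reporter signal by FACS. They set these reporter-positive cells against VV3 ESCs with control siRNA, and do not state for these arrays whether control cells were sorted. The knockdown and the sort therefore cannot be told apart. Values are normalized log2 intensities, that is log2 of the background-subtracted spot intensity minus the 75th percentile of the array. This percentile was 791 to 1038 in *L3mbtl2*-KD ESCs and 854 to 1024 in control ESCs, and 59.5 to 66.6% of the spots of an array were well above background by the scanner's flag. Replicates 1 and 2 of both groups lay on the first slide and replicates 3 and 4 on the second. The number of arrays limits the precision.

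The siRNA target was at 0.27, -0.18, -0.21 and -0.31 in control replicates 1 to 4 and at -1.45, -1.26, -1.58 and -1.73 in *L3mbtl2*-KD replicates 1 to 4. Every *L3mbtl2*-KD array thus lay below every control array, with an exact two-sided permutation p of 0.0286, which is the smallest value the 70 arrangements of 8 arrays can give. These arrangements ignore that equal replicate numbers pair the samples. Within the pairs *L3mbtl2* differed by -1.72, -1.08, -1.37 and -1.43, and with the replicate number as a block its adjusted p was 0.0017 in limma. The log2 difference of *L3mbtl2* (NM_145993) was -1.40 (SE 0.15, adjusted p = 0.00095 in limma). Of the late PGC markers, *Ddx4* (log2 difference 2.83), *Dazl* (1.61) and *Stra8* (1.34) rose while *Sycp3* was not called (-0.11, limma adjusted p = 0.63). The sort described for *L3mbtl2*-KD ESCs used the reporter of *Ddx4* itself, so the rise of *Ddx4* cannot be told apart from that selection. All 12 pluripotency markers examined were well above background on every array, with *Dppa5a* as the gene of highest signal.

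The *Tdpoz* cluster was measured by 10 probes of 6 genes, and all 10 had a higher mean in *L3mbtl2*-KD ESCs than in control ESCs. Several of these genes are near-identical copies, and since the probe sequences were not used here, a probe may report more than one copy. *Spopfm2* (Spop family member 2, NM_001146107) had the cluster probe with the highest mean signal, A_55_P1970329. Its normalized log2 intensity was -2.38, -1.92, -2.89 and -2.96 in control replicates 1 to 4 and 0.18, -0.090, -0.99 and -1.02 in *L3mbtl2*-KD replicates 1 to 4. The groups did not overlap, and within each group the first 2 replicates were above the last 2. The mean was -2.54 ± 0.48 in control ESCs and -0.48 ± 0.62 in *L3mbtl2*-KD ESCs (SD, n = 4 each), a log2 difference of 2.06 or 4.17-fold. Its SE was 0.34, and 0.14 with the replicate number as a block. The probe was well above background on all 8 arrays. The second *Spopfm2* probe, A_55_P2099991, gave a log2 difference of 2.45 (SE 0.70), and 0.82 with normexp correction, and was well above background on 2 of the 4 control arrays.

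The 250 bases before the annotated start of *Spopfm2* are printed with those of *Tdpoz1* and of *Tdpoz8*, a copy outside the chosen members, because these windows share a word although the genes differ in signal across the arrays. The sequences are from RefSeq (GRCm38.p6), 5′ to 3′ toward the gene, and lie at chr3:94178194-94178443 (minus strand), chr3:93676284-93676533 (minus strand) and chr3:93068573-93068822 (plus strand). Capitals mark the shared word of 26 bases and TATATAA.
Spopfm2: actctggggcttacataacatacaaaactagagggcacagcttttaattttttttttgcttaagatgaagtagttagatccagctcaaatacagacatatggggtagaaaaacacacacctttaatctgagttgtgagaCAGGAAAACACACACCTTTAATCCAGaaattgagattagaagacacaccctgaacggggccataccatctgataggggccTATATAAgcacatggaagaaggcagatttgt
Tdpoz1: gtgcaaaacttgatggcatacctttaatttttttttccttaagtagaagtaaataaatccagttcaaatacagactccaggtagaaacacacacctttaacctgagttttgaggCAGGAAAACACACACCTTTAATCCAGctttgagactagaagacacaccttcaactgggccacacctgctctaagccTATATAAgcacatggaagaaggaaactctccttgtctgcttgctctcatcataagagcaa
Tdpoz8: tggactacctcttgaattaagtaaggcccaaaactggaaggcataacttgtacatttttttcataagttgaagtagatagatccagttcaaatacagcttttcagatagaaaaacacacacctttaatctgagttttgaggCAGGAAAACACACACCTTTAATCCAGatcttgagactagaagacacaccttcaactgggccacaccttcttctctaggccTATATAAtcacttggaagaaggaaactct
The 26-base word was present in 4 of the 32851 promoter windows of the RefSeq table (0.0122%), which are the 3 printed and that of *Tdpoz9*, another copy of the cluster. The *Tdpoz9* window shares an unbroken run of 186 bases with that of *Tdpoz1*. TATATAA, searched on both strands and found in 3.04% of all windows, began at -31 from the annotated start in *Spopfm2*, -60 in *Tdpoz1*, -29 in *Tdpoz8* and -33 in *Tdpoz9*. The letters CACGTG, the E-box bound by MAX, occurred in 6.02% of all windows, and AGGTGTGA, a T-box sequence of the kind bound by MGA, in 1.12%. Neither occurred in the windows of the 6 members with an entry, nor in those of *Tdpoz8* and *Tdpoz9*, which says only that these letters are not in these windows. The windows of *Tdpoz4*, *Tdpoz5* and *Tdpoz7* and a second window of *Tdpoz8* precede annotated starts that begin with ATG and held neither the word nor TATATAA, and this *Tdpoz8* window shares a run of 130 bases with that of *Tdpoz4*. Those of *Tdpoz5* and *Tdpoz7* differed at 1 of 250 bases. The windows of the cluster members held 0 to 3 CpG, against a median of 6 over all windows.

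*Tdpoz2* (NM_001007222) was measured by a single probe, at -4.60, -4.04, -5.06 and -5.22 in control replicates 1 to 4 and at -2.09, -2.19, -3.26 and -3.39 in *L3mbtl2*-KD replicates 1 to 4. The groups did not overlap, and again the last 2 replicates of each group were its lowest. The log2 difference was 2.00 (SE 0.37), and 1.08 with normexp correction, with the probe above background on 3 of 4 control arrays and on all *L3mbtl2*-KD arrays. *Tdpoz7* (NM_001163731) had a probe above background on all 8 arrays, A_55_P1994401, which was at -3.19, -3.13, -4.00 and -3.69 in control replicates 1 to 4 and at -1.65, -2.02, -2.96 and -3.02 in *L3mbtl2*-KD replicates 1 to 4. These groups also lay apart, but only by the gap between -3.13 and -3.02. The log2 difference was 1.09 (SE 0.34) with this probe and 2.45 (SE 0.59) with the second *Tdpoz7* probe, A_55_P1959788, which was above background on 2 control arrays. With normexp correction the 2 probes gave 0.72 and 0.97.

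*Tdpoz4* (NM_207272) was at -4.87, -5.47, -6.88 and -5.89 in control replicates 1 to 4 and at -3.59, -3.39, -4.45 and -4.89 in *L3mbtl2*-KD replicates 1 to 4. *L3mbtl2*-KD replicate 4 lay just below control replicate 1, so the groups overlapped, and only 1 control array was above background (log2 difference 1.70, and 0.67 with normexp correction, so no fold is given). *Tdpoz1* (NM_148949) was not well above background on any control array with either of its probes, and it was above background on 1 or 2 of the *L3mbtl2*-KD arrays. With probe A_55_P1970284 the *L3mbtl2*-KD replicates were at -4.63, -5.25, -7.11 and -7.53, so the signal stood above background on the first slide only, and no fold is given. *Tdpoz3* (NM_207271) was well above background on 1 control array and 3 *L3mbtl2*-KD arrays with probe A_55_P2060736 and on no array with probe A_55_P2074957, and no fold is given.

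**Figure D1:**
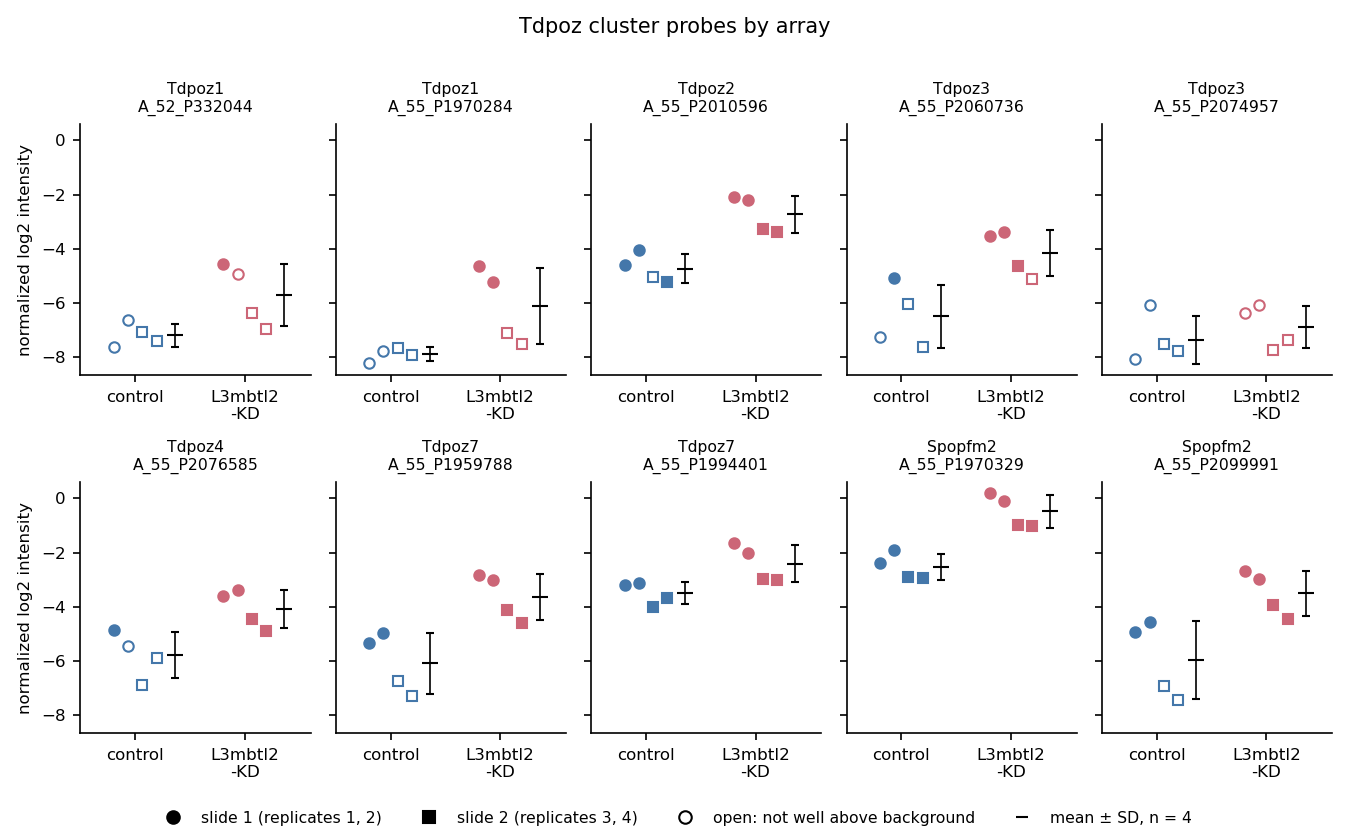
Normalized log2 intensity (y axis) of the 10 *Tdpoz* cluster probes in control and *L3mbtl2*-KD ESCs, one point per array, with circles for the first slide, squares for the second, open symbols for arrays where the probe was not well above background, and mean ± SD of 4 arrays beside them. In 9 of 10 panels the second slide has the lower mean in both groups.

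Taken over the 10 cluster probes, the median log2 difference was 1.88 (range 0.48 to 2.45). This covers probes at background level, such as both *Tdpoz1* probes in control ESCs and *Tdpoz3* A_55_P2074957 on all arrays, whose differences are not measures of fold, and 6 of the 10 probes passed the filter for testing. By the rule used for all genes, which asks for over 2-fold and an adjusted p in limma below 0.05, 4 members (*Tdpoz2*, *Tdpoz4*, *Tdpoz7* and *Spopfm2*) would count as higher and 0 as lower, where 2.49% of the 13641 genes tested were called higher (340 genes) and 3.19% lower (435 genes). This is no test of the members and nothing is read from it, because they were selected on the same contrast. *Tdpoz7* was counted through A_55_P1959788 and not through its probe that was above background on all 8 arrays, which would count with the replicate number as a block. The filter for testing required signal on every array of a group, and 4 of the 6 probes passed it through the *L3mbtl2*-KD arrays alone. With normexp correction of median spot signals and an offset of 50, which changes the signal as well as the background correction, the median was 0.71 (range 0.30 to 1.74). The direction was the same for all 10 probes. Unless stated otherwise, the SEs of cluster probes are from the fit without pairing. With the replicate number as a block they were 0.14 to 0.27 for the 6 probes that passed the filter.

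**Figure D2:**
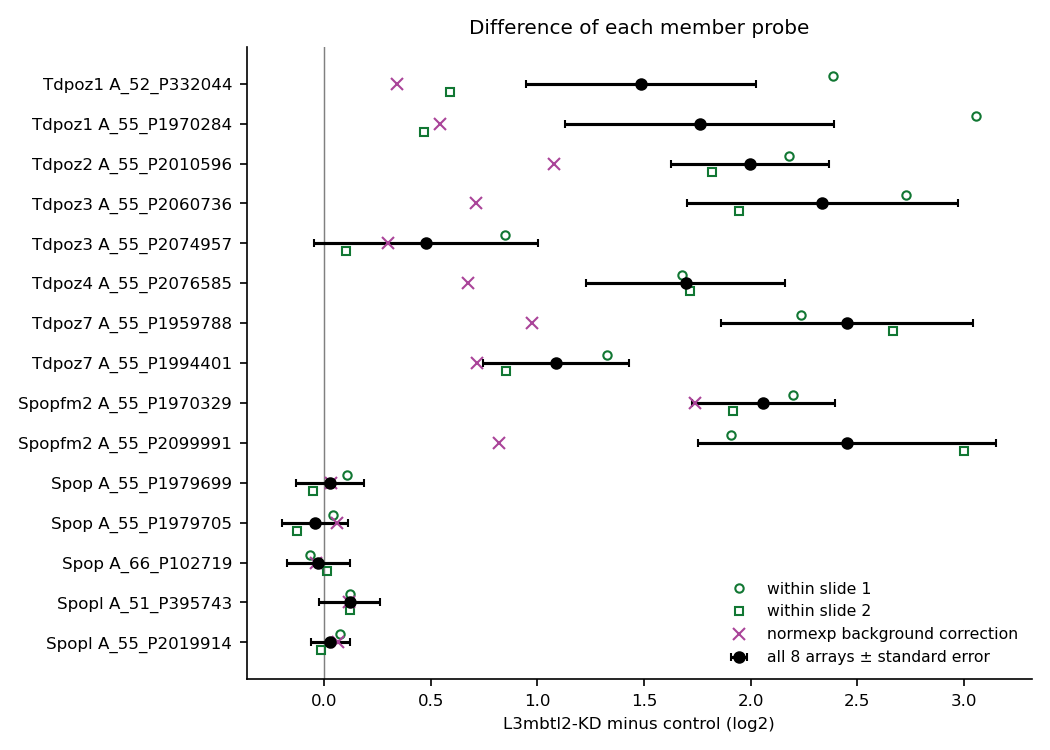
Log2 difference between *L3mbtl2*-KD and control ESCs (x axis) for each member probe: black points with bars show the difference over 8 arrays ± SE, open circles and squares the difference within the first and the second slide, and crosses the difference with normexp background correction. The cluster probes lie between 0.48 and 2.45 and the 5 *Spop* and *Spopl* probes between -0.041 and 0.12.

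The cluster values were lower on the second slide in both groups. The median normalized log2 intensity of its 10 probes was -5.14, -5.03, -6.81 and -7.37 in control replicates 1 to 4 and -3.18, -3.20, -4.29 and -4.74 in *L3mbtl2*-KD replicates 1 to 4. Both arrays of the second slide were the lowest of each group. Of the 10 probes, 6, 6, 2 and 3 were above background on the control arrays and 9, 8, 7 and 6 on the *L3mbtl2*-KD arrays. The difference between the slides does not use the contrast by which the members were chosen, but it was examined after the lower values had been seen. The log2 difference, second slide minus first, was -0.91 and -1.91 with the *Spopfm2* probes A_55_P1970329 and A_55_P2099991, -1.003 for *Tdpoz2* and -1.20 for *Tdpoz4*. For *Tdpoz7* it was -1.65 with A_55_P1959788 and -0.92 with A_55_P1994401. Equal replicate numbers pair the samples and lie on the same slide, so the comparison was made on the mean of the 2 arrays of each number, 2 against 2. In this fit 0 of 23427 probes had an adjusted p under 0.05 in limma (smallest 0.106), while 63 genes were more than 2-fold lower at an unadjusted p under 0.05. The 2 cluster probes above background on all arrays (*Spopfm2* A_55_P1970329 and *Tdpoz7* A_55_P1994401) had an adjusted p of 0.27 in limma (unadjusted p of 0.00059 and 0.00084). The other 4 were at background level on at least 1 control array of the second slide, so their slide differences are not measures of fold. A fit that counted the 8 arrays as independent called 4 of the 4 cluster genes tested and 0.345% of all genes tested (47 genes) more than 2-fold lower on the second slide, and nothing is read from that count. The lower values on the second slide are therefore a description that did not pass the test, in a fit where no probe passed. Over all probes tested, 50.2% were lower on the second slide and the median slide difference was -0.001. The slides also hold different replicates, so a difference between slides and one between cell preparations cannot be told apart.

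Both slides held 2 arrays of each group, and the difference between the groups was present within each. Its median over the cluster probes was 2.19 on the first slide and 1.77 on the second.

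*Spop* and *Spopl* had differences near 0. *Spop* (NM_025287), the CUL3 adaptor present in most tissues, was at 1.55, 0.96, 1.06 and 1.24 in control replicates 1 to 4 and at 1.38, 0.99, 1.07 and 1.26 in *L3mbtl2*-KD replicates 1 to 4 with probe A_66_P102719. Each *L3mbtl2*-KD replicate lay within 0.164 of the control replicate of the same number, and the ranges overlapped. The log2 difference was -0.027 (SE 0.15), with 0.027 (SE 0.16) and -0.041 (SE 0.15) for the other *Spop* probes. *Spopl*, whose protein assembles with SPOP into the same type of ligase, was at -1.95, -2.16, -2.38 and -2.44 in control replicates 1 to 4 and at -1.92, -1.95, -2.24 and -2.33 in *L3mbtl2*-KD replicates 1 to 4 with probe A_51_P395743 (NM_029773). The difference of 0.12 (SE 0.14) was smaller than the spread within the groups, and the second *Spopl* probe gave 0.030 (SE 0.091). Within the same-numbered pairs A_51_P395743 differed by 0.031, 0.21, 0.14 and 0.10, each higher in *L3mbtl2*-KD ESCs (SE 0.049 with the replicate number as a block). All 5 probes were above background on all 8 arrays, and the groups overlapped for each. Between the slides this *Spopl* probe differed by -0.35 (adjusted p = 0.37 in limma on the means of the replicate numbers) and the *Spop* probes by -0.29 to 0.16.

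The *Spop* window before the annotated start, chr11:95413833-95414082 (plus strand, RefSeq, GRCm38.p6), is printed to set it beside the cluster windows, from which it differs in base composition. Capitals mark GCGGGAA or its reverse complement TTCCCGC, an E2F-type sequence.
Spop: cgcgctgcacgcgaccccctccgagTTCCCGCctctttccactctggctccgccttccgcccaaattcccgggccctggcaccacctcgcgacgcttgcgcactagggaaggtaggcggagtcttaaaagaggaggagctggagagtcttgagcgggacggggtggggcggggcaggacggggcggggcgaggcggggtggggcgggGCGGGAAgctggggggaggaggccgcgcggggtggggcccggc
It held 27 CpG and 73.6% G and C, where the medians over all windows were 6 and 52.4%. GCGGGAA, searched on both strands and present in 3.82% of all windows, occurred at -225 and -43 from the start. It occurred in none of the other family windows examined.

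**Figure D3:**
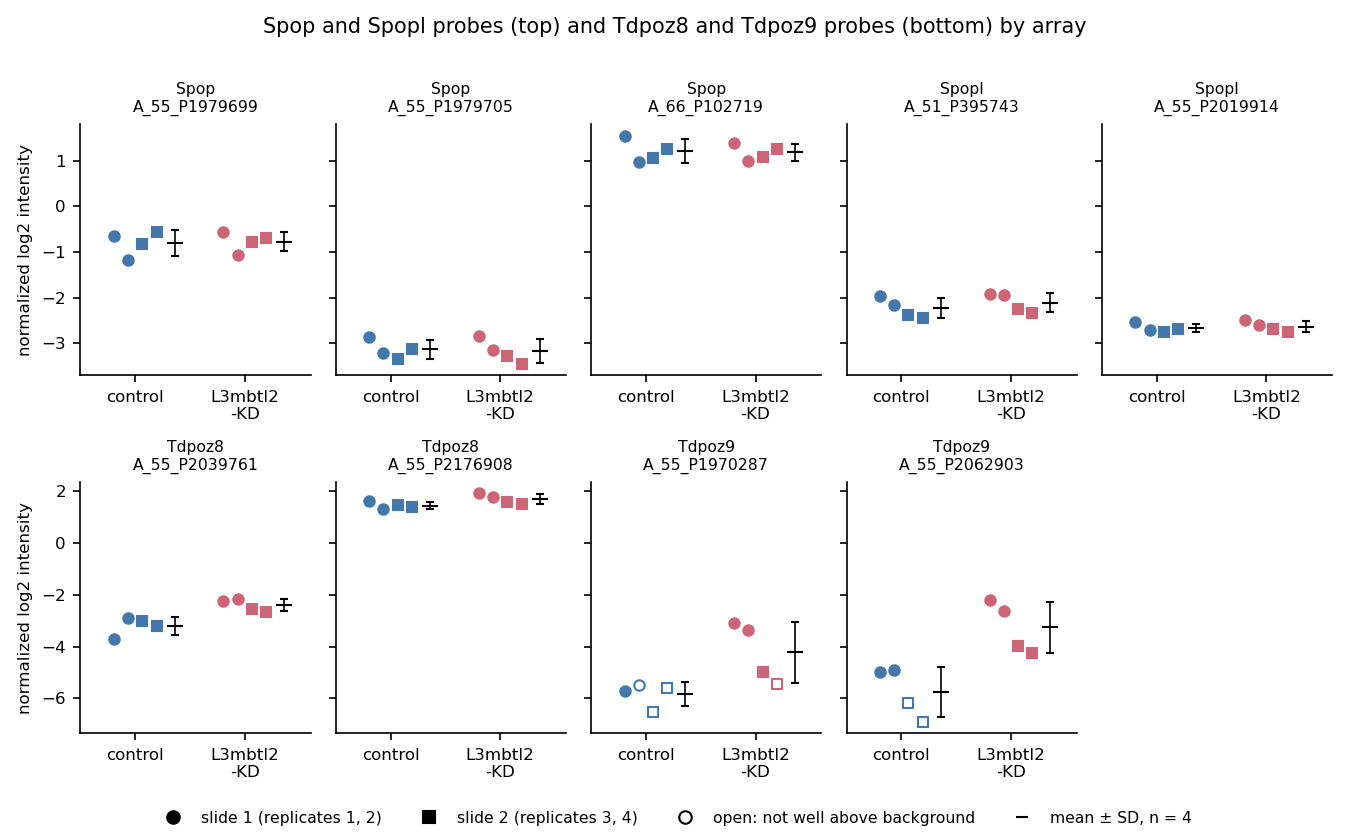
Normalized log2 intensity (y axis, one scale for each line of panels) by array for the *Spop* and *Spopl* probes (top) and the *Tdpoz8* and *Tdpoz9* probes (bottom), with symbols for slide and background as for the cluster probes and mean ± SD of 4 arrays. The *Spop* and *Spopl* groups overlap in all 5 panels, and both *Tdpoz9* panels and one *Tdpoz8* panel show the *L3mbtl2*-KD arrays above the control arrays.

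The 2 other copies with a named probe, *Tdpoz8* and *Tdpoz9*, were not among the chosen members. *Tdpoz9* (NM_001163730), which lies between *Tdpoz5* and *Tdpoz7* in the cluster, was at -4.97, -4.91, -6.19 and -6.89 in control replicates 1 to 4 and at -2.22, -2.61, -3.96 and -4.24 in *L3mbtl2*-KD replicates 1 to 4 with probe A_55_P2062903. It rose by a log2 difference of 2.48 (SE 0.58, adjusted p = 0.022 in limma), higher in all 4 same-numbered pairs, and was well above background on 2 control arrays, both of the first slide. It passed the filter through the *L3mbtl2*-KD arrays alone, so the size is against a control group partly at background. The probe may also report other copies of the cluster, so its p is not independent of the chosen members. With normexp correction the difference was 1.14, and the second *Tdpoz9* probe, above background on 1 control array and not tested, gave 1.62. The adjusted p was 0.054 without the filter on dim probes, 0.050 without *L3mbtl2*-KD replicate 2 and 0.063 without control replicate 3. With the replicate number as a block it was 0.0006 in limma (SE 0.11). *Tdpoz8* (NM_001034860) had 2 probes above background on all 8 arrays, and its probe A_55_P2176908 was at 1.62, 1.29, 1.46 and 1.38 in control replicates 1 to 4 and at 1.91, 1.77, 1.59 and 1.51 in *L3mbtl2*-KD replicates 1 to 4. The groups overlapped, and the difference of 0.26 (SE 0.12) had an adjusted p of 0.16 in limma, or 0.047 with the replicate number as a block. The other *Tdpoz8* probe, A_55_P2039761, gave 0.79 (SE 0.19, adjusted p = 0.024 in limma), less than 2-fold. Over 18 alternatives this probe lay between 0.50 and 1.08, and its adjusted p in limma was under 0.05 in 12 of them. Between the slides the *Tdpoz8* probes differed by -0.17 and -0.11.

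Outside the *Tdpoz* cluster, whose probes were left out of this ranking, the probes whose pattern over the 8 arrays was most like that of *Spopfm2* A_55_P1970329 came from *Zscan4c*, *Pramel21*, *Gm17019* and *Pramel34*. *Zscan4c* marks the two-cell-like state of ESCs, and *Pramel21* and *Pramel34* belong to the PRAME family. Pearson's r was 0.996 for *Zscan4c* (A_55_P2019533) and *Pramel21*, and 0.995 for *Gm17019*, *Pramel34* and a second *Zscan4c* probe (A_55_P2007017). Most of such an r can come from the difference between the groups, so it was also taken over the deviations from the group means. There it was 0.977 for *Zscan4c* (A_55_P2019533) and *Pramel21*, 0.983 for *Gm17019*, 0.975 for *Pramel34* and 0.97 for the second *Zscan4c* probe. Over the 16708 gene-named probes compared, which were above background on every array, the median r was -0.0092 and that of the deviations -0.023, with 403 probes (2.41%) above 0.9 in the deviations. These are descriptions over 8 arrays that share slides and replicate numbers. *Zscan4c* (A_55_P2019533) was at 2.29, 2.51, 1.37 and 1.40 in control replicates 1 to 4 and at 4.73, 4.42, 3.52 and 3.59 in *L3mbtl2*-KD replicates 1 to 4, so the second slide was the lower in both groups here too. Among the cluster probes, *Tdpoz2* had an r with *Spopfm2* of 0.997, above those of the ranked probes, and of 0.993 in the deviations, and *Tdpoz7* had 0.955 and 0.935 in the deviations. The other cluster probes were lower in the deviations, at 0.89 for *Spopfm2* A_55_P2099991 and 0.76 for *Tdpoz4*. *Tdpoz1* had 0.84 and 0.76 there, and *Tdpoz3* 0.75 and 0.81. For *Spop* the r of the deviations was -0.39, 0.65 and 0.024 with its 3 probes, and for *Spopl* 0.84 and 0.67. The higher *Spopl* value thus lay within the range of the cluster probes.

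**Figure D4:**
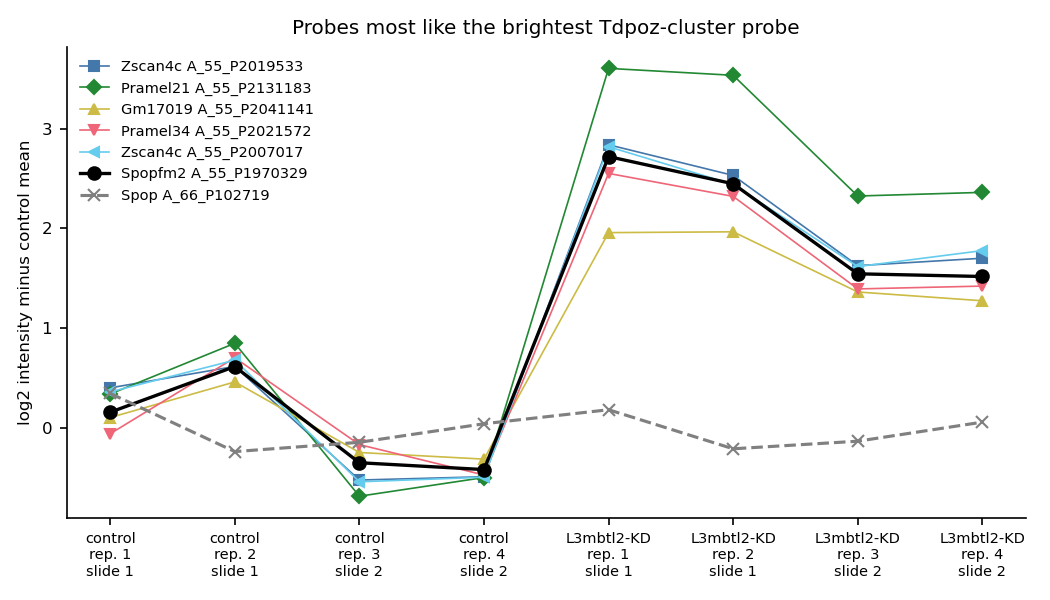
Log2 intensity minus the control mean of the same probe (y axis) on each of the 8 arrays (x axis) for *Spopfm2* A_55_P1970329 (black), the 5 probes outside the cluster most like it and *Spop* A_66_P102719 (dashed). The *Spopfm2* line and those of the 5 probes are lower on the second slide than on the first in both groups, and the *Spop* line stays near 0.

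Two-cell-like genes, of which *Zscan4c* is one, were examined as a list beside the cluster. Of 24 two-cell-like genes, 16 had a probe and 14 were tested, of which 12 were called higher and 0 lower, with a median log2 difference of 2.00, where the median over all 23505 probes tested was -0.028. Among all genes tested 2.49% were called higher and 3.19% lower. *Usp17lb* (2.85), *Usp17la* (2.53) and *Zscan4c* (2.18) had the largest rises by the probe of highest signal, while a second *Usp17la* probe gave 0.28 (adjusted p = 0.33 in limma). *Sp110* was called through its dimmer probes (2.42 and 1.73), while its probe of highest signal gave -0.023 (adjusted p = 0.94 in limma). Their median slide difference was -0.85, and in the deviations their median r with *Spopfm2* was 0.89. The summed signal of the list, in units of the 75th percentile of the array, was 137, 157, 95.8 and 98.6 in control replicates 1 to 4 and 247, 258, 155 and 161 in *L3mbtl2*-KD replicates 1 to 4. *Sp110* held 71.6% of it in control ESCs. In these bulk samples a larger share of cells with such RNA and more RNA per cell cannot be told apart, and the part of the two-cell-like genes in the result on the cluster was not tested.

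Genes of oocytes were examined because *Tdpoz* transcripts are known there. Of 36 oocyte genes, 34 had a probe and 16 were tested, and the median log2 difference was 0.16. *Dppa3* (2.44) and *Khdc3* (1.71), which ESCs also express, were called higher and 0 genes lower in limma, and without the filter on dim probes 4 were called higher and 1 lower. Calls over all genes tested were 2.49% higher and 3.19% lower. Of the 16 tested, 12 were higher and 4 lower, and under 2-fold *Zp3*, which codes for a protein of the zona pellucida, was higher by 0.91 (adjusted p = 0.012 in limma) and *Padi6* lower by -0.49 (adjusted p = 0.045 in limma). Of the oocyte markers, *Zp1*, *Bmp15*, *Nobox*, *Nlrp9b*, *Nlrp14*, *Oosp1*, *Mos*, *Btg4*, *Obox5*, *Pabpn1l* and *Omt2a* were not well above background on any array. The summed signal was 16.4, 14.4, 12.8 and 11.5 in control replicates 1 to 4 and 19.1, 25.1, 19.6 and 17.5 in *L3mbtl2*-KD replicates 1 to 4, with *Tle6* as the gene of highest signal.

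Of 12 pluripotency markers tested 0 were called in either direction (median log2 difference -0.20), also in the figure legends' one-way test at an unadjusted p under 0.05. Under 2-fold, *Klf4* was lower by -0.70 (adjusted p = 0.027 in limma) and *Dppa4* higher by 0.31 (adjusted p = 0.030 in limma). *Nanog* had the largest difference (-1.32, adjusted p = 0.096 in limma), and without *L3mbtl2*-KD replicate 4 it was -1.74 (adjusted p = 0.027 in limma). Their summed signal was 342, 358, 338 and 332 in control ESCs and 326, 362, 320 and 339 in *L3mbtl2*-KD ESCs. Of 13 feeder fibroblast markers tested 8 were called lower and 1 (*Loxl1*, 1.01, and 0.89 with normexp correction) higher, with a median of -1.61, which is the same with the 2 genes below at their bounds. In the whole set of genes tested 3.19% were called lower and 2.49% higher. The call of *Loxl1* was lost with normexp correction, without control replicate 3 (0.98) and without *L3mbtl2*-KD replicate 4 (0.93). *Dcn* was at least 12.1-fold lower and *Col3a1* at least 7.81-fold lower, as neither was well above background on any *L3mbtl2*-KD array. With normexp correction, whose offset applies to all signals, their log2 differences were -1.88 and -1.55, below these bounds in size. For these bounds the control mean was set against the dimmest signal that still counted as well above background on each *L3mbtl2*-KD array, or against the probe's own signal if that was higher. *Lum* and *Postn* were not above background on any array. The summed feeder signal was 6.72, 14.7, 13.0 and 16.3 in control ESCs and 5.91, 6.11, 6.77 and 6.75 in *L3mbtl2*-KD ESCs, with *Tagln* as the gene of highest signal. The methods describe a sort for reporter signal for *L3mbtl2*-KD ESCs, and its part in the feeder signal was not tested. Fewer feeder cells and less RNA per cell cannot be told apart, and the part of these cells in the result on the cluster was not tested.

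The neighbours of the cluster were examined as far as 5 named genes with a probe on each side. Between the first and the last member the RefSeq table lists 21 gene models, 8 of them protein coding and 13 pseudogenes. Of these neighbours 4 passed the filter on dim probes, and 0 of the 4 were called in limma. *Them4*, a thioesterase gene next to *Spopfm2*, was at -2.52 ± 0.07 in control ESCs and -1.98 ± 0.13 in *L3mbtl2*-KD ESCs (SD, n = 4 each), a log2 difference of 0.54 (SE 0.090, adjusted p = 0.0056 in limma) that is under 2-fold. *Tchh* (0.82, adjusted p = 0.15 in limma, and 0.0038 with the replicate number as a block), *S100a10* (0.28, adjusted p = 0.16, and 0.011 with the block) and *S100a11* (-0.21, adjusted p = 0.50, and 0.027 with the block) had overlapping groups, each with the same sign in all 4 same-numbered pairs. Around *Spop*, 1 of 8 neighbours tested was called, the nerve growth factor receptor gene *Ngfr* (log2 difference -1.11, SE 0.17, adjusted p = 0.0036 in limma). It was under 2-fold, and so not called, with normexp correction (-0.995) and without control replicate 3 (-0.990). *Dlx4*, a homeobox gene, was lower by less than 2-fold (-0.90, adjusted p = 0.0097 in limma). Around *Spopl*, 0 of 4 neighbours tested were called. By comparison, 2.49% of all genes tested were called higher and 3.19% lower.

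**Figure D5:**
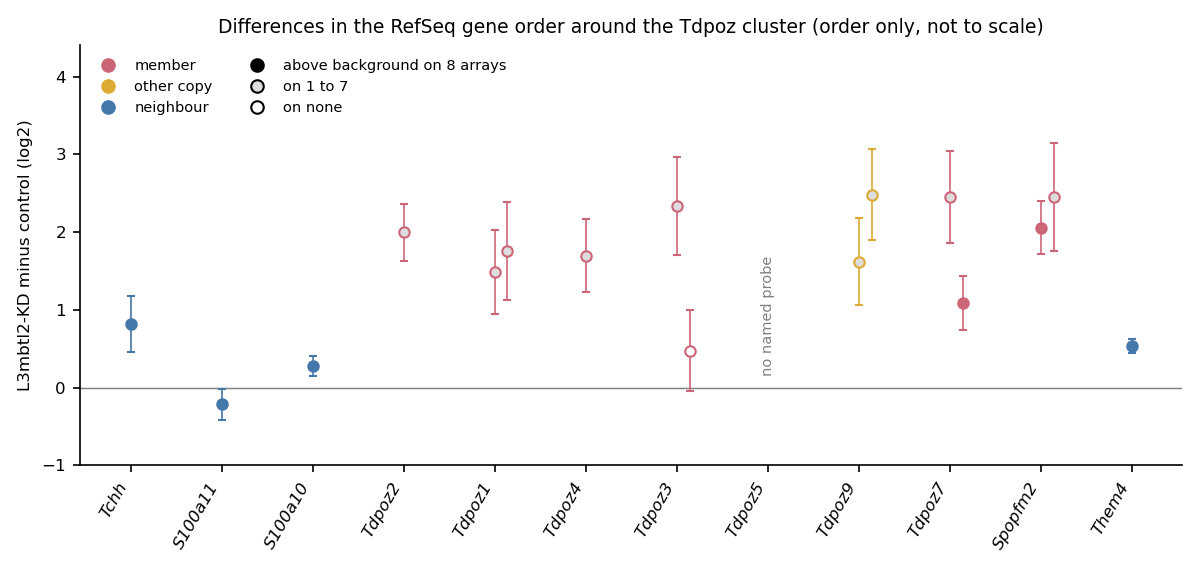
Log2 difference between *L3mbtl2*-KD and control ESCs ± SE (y axis) in the RefSeq order of genes around the *Tdpoz* cluster (x axis, order only, with the 4 neighbours that passed the filter), with filled symbols for probes above background on 8 arrays, grey for 1 to 7 and open for none. All probes of the cluster and of *Tdpoz9* lie above 0, and those of the neighbours lie between -0.21 and 0.82.

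By the probe of highest signal, the partners of SPOP in the ubiquitin ligase stayed under 2-fold. Of 27 genes of the CUL3 machinery (the scaffold, its NEDD8 pathway, the COP9 signalosome and ubiquitin-conjugating enzymes) 26 were tested, and 0 were called in either direction in limma, as also in the figure legends' one-way test at an unadjusted p under 0.05. With 2.49% of all genes tested called higher and 3.19% lower, nothing is read from 0 calls among 26 genes. The median log2 difference of the list was 0.22, with 21 genes higher, 5 of them at an adjusted p under 0.05 in limma. *Rbx1*, the RING subunit and the gene of highest signal in the list, was at 4.89 ± 0.15 in control ESCs and 4.79 ± 0.14 in *L3mbtl2*-KD ESCs (SD, n = 4 each). By the probe of highest signal, the largest difference was that of *Uba3* (-0.56, adjusted p = 0.053 in limma, and 0.0145 with the replicate number as a block), an enzyme subunit that activates NEDD8. At 1.5-fold 2 genes of the list were called higher, through other probes.

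Other BTB proteins serve CUL3 as adaptors for other substrates. Of 43 such genes 39 were tested, with 3 called higher, 2 lower and a median log2 difference of 0.029. The shares over all genes tested were 2.49% called higher and 3.19% lower. *Kbtbd6* rose from -2.31 ± 0.33 to -0.86 ± 0.40 (SD, n = 4 each), a log2 difference of 1.45 (SE 0.23, adjusted p = 0.0043 in limma), and *Kbtbd13* rose by 1.35 (SE 0.23, adjusted p = 0.0061 in limma). *Ankfy1* was called through one probe (A_55_P2121558, 1.74, adjusted p = 0.0028 in limma), while its probe of highest signal gave 0.12 (adjusted p = 0.54). The called probe was above background on 2 of 4 control arrays. *Zbtb16*, a transcription factor of germ line stem cells, was lower by -2.28 (SE 0.30, adjusted p = 0.0022 in limma) and *Klhl13* by -1.29 (SE 0.21, adjusted p = 0.0054). The *Zbtb16* probe was well above background on 3 of 4 *L3mbtl2*-KD arrays, so its size rests on a group partly at background. With the filter that required signal on all 8 arrays it was not tested. With normexp correction 1 gene was called higher, so that the calls of *Ankfy1* and *Kbtbd13* were lost, and *Kbtbd13* (0.71) and *Zbtb16* (-1.004) came closer to the control.

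Of 10 other genes with a MATH domain 9 were tested, and 1 was called, *Traf1*, an adaptor of tumour necrosis factor receptors, with a log2 difference of -1.13 (SE 0.18, adjusted p = 0.0046 in limma; -0.51 with normexp correction). Of 30 genes whose proteins are known substrates of SPOP 26 were tested, with 1 called higher, 0 lower and a median of 0.14. The called gene was *Cd274*, which codes for the ligand PD-L1, at 1.68 (SE 0.42, adjusted p = 0.028 in limma) and above background on 2 of 4 control arrays. With normexp correction it was 0.62 and not called, and its adjusted p was 0.066 without the filter on dim probes and 0.057, 0.061, 0.077, 0.073 and 0.055 without *L3mbtl2*-KD replicate 1, *L3mbtl2*-KD replicate 2, control replicate 3, *L3mbtl2*-KD replicate 3 or control replicate 4. *Nanog* is in this list as well as among the pluripotency markers. Of 16 subunits of PCGF6-PRC1 tested, *L3mbtl2* itself was called lower and 0 were called higher, with a median log2 difference of 0.023. For all genes tested the shares called were 2.49% higher and 3.19% lower. Nothing is read from 1 call among the MATH-domain genes or the SPOP substrates.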

How the data were processed

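Feature Extraction intensities were read from the deposited files: the background-subtracted signal of each spot was taken to log2 and shifted by the 75th percentile of the array, the scale the authors used in GeneSpring. Spots that the scanner software marked as outliers were left out, and the others of a probe were averaged. The deposited log2 table correlated with these values, each probe centred on its median, at 0.99994 or more over 39242 probes. Testing covered 23505 probes of 13641 genes, those well above background on every array of either group, with limma 3.58.1 in R 4.3.3 and p adjusted by Benjamini-Hochberg, and a gene was called at 2-fold and an adjusted p under 0.05 with any of its probes. Gene names came from RefSeq identifiers of the probes and the RefSeq table of GRCm38.p6. Python 3.11.15, numpy 2.4.6, pandas 2.3.3, scipy 1.17.1 and matplotlib 3.10.9 were used for the other steps.

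The members and lists were chosen with earlier results of these data known. Named genes were all members and other copies, *L3mbtl2* and the late PGC markers. Per list, up to 3 called genes in each direction were named, with the largest differences by the probe of highest mean signal. For lists without a call these were the genes of highest signal and of largest difference. Also named were the 5 probes outside the cluster most like *Spopfm2*, and up to 5 neighbours on each side. Other genes, such as those of highest signal in further lists, were named after their values were seen. Whether equal replicate numbers pair samples was checked by the correlation of deviations from the group means: it was 0.58, 0.54, 0.43 and 0.38 for equal numbers and -0.44 to 0.25 for others, and a fit with the replicate number as a block was run. Alternatives were normexp background correction (on median spot signals), quantile normalization, the deposited log2 table, other filters, slide and replicate blocks, an intensity trend, one probe per gene, each slide alone, a 1.5-fold threshold, a one-way test of the figure legends and leaving out each array. The comparison between slides was chosen after seeing the data and was fitted on the mean of both arrays of each replicate number, as well as on single arrays. *Zp3*, *Padi6*, *Klf4* and *Dppa4* were named after their values were seen. A self-test with known differences was run on the fitting steps.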

Additional observations from a re-analysis of the deposited data

Results flagged for a closer look

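In each group of 4 arrays the gap of the highest or lowest array to its nearest neighbour was set against the whole range of the group. Of 125 groups tested, 4 passed Dixon's 95% critical value, where chance gives about 1 in 20 groups, or 6.25. For *Khdc3* control replicate 4 stood apart (ratio 0.845), at a normalized log2 intensity of 1.23 against a mean of 1.66 in the other control arrays. For *Nanog* control replicate 2 stood apart (ratio 0.894), at -1.38 against -2.83. For *Abi1*, a neighbour of *Spopl*, *L3mbtl2*-KD replicate 2 stood apart (ratio 0.842), at -2.10 against -1.94. For *Il1f9*, another neighbour of *Spopl*, *L3mbtl2*-KD replicate 2 was at -3.26 against -7.41 (ratio 0.916), and it was the only array where this probe was well above background. None of these groups belonged to a member of the family.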

How the results depend on the processing

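Among the named probes followed through the alternatives, no called one turned its direction. The directions of the other called genes were not followed. With normexp background correction of median spot signals, which changes both the signal and the correction, 194 genes were called higher (193 shared with the 340) and 159 lower (155 shared with the 435), the BTB adaptors had 1 gene higher, the other MATH-domain genes 0 lower, the SPOP substrates 0 higher, and the cluster median was 0.71. With a filter that required signal above background on each of the 8 arrays, 288 genes were called lower, the BTB adaptors had 1 lower and the SPOP substrates 0 higher. Within the first slide limma called 0 genes higher and 0 lower (319 and 371 at an unadjusted p under 0.05), so that all list counts were 0, among them 0 for the context lists, which otherwise had 24 calls in both directions together, and *L3mbtl2* was at -1.40 with an adjusted p of 0.098, whereas within the second slide, with as many arrays, 342 genes were higher and 404 lower and the context lists had 22 calls. The SPOP substrates had 0 genes higher also without a filter, within the second slide and with the one-way test adjusted by Benjamini-Hochberg. At 1.5-fold 700 genes were higher and 1009 lower, with 2 of the CUL3 machinery and 2 SPOP substrates higher. Leaving out each array in turn gave 298 to 371 genes higher, 354 to 497 lower, 0 to 1 SPOP substrates higher, 0 to 1 lower, 21 to 25 calls in the context lists and a cluster median of 1.64 to 2.22. Within the replicate block 358 genes were higher (339 shared) and 466 lower (431 shared), and the cluster median was 1.88; 9 named genes outside the members (*Uba3*, *Dppa5a*, *S100a10*, *S100a11*, *Tchh*, *Slc35b1*, *Fam117a*, *Zfp652* and *Tdpoz8* by A_55_P2176908) had an adjusted p under 0.05 with this block and not without it, each under 2-fold. The stricter filter tests fewer probes, and for the other changes the cause was not tested. Over 19 alternatives *Spop* (A_66_P102719) stayed between -0.11 and 0.088, on either side of 0, *Spopl* (A_51_P395743) between 0.052 and 0.21 and *Spopfm2* (A_55_P1970329) between 1.74 and 2.26. Signal over background limits most of the cluster, as 2 of its 10 probes were well above background on all 8 arrays.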
